A study of Mus musculus with 12 samples.

Results

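The 10 genes described here encode Ca2+/calmodulin-dependent protein kinase II (CaMKII), its protein inhibitors and related calcium kinases, out of 18911 genes in the count table of mouse neural progenitor cells (mNPCs). They are the CaMKII subunit genes Camk2a, Camk2b, Camk2d and Camk2g, the inhibitor genes Camk2n1 and Camk2n2, the kinase genes Camk4, Camk1d and Camkk2, and Camkv. The set was chosen by gene name around Camk2a, which had itself been picked from these libraries because its level was higher in Kmt2a+/LSL. The higher Camk2a level in Kmt2a+/LSL is therefore a description in what follows, and comparisons that share those libraries lend it no support.

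Poly(A) RNA was sequenced from mNPCs cultured from the hippocampus of newborn (P0) pups, with 3 libraries for each of 4 genotypes. Kmt2a+/+ cells carry 2 intact alleles of Kmt2a, which encodes a histone H3 lysine 4 methyltransferase. Kmt2a+/LSL cells carry a loxP-flanked stop cassette in intron 1 of 1 allele, which ends the transcript of that allele early. Nes-Cre+/- Kmt2a+/LSL cells carry the same cassette together with a nestin-driven Cre recombinase that removes it, and Nes-Cre+/- Kmt2a+/+ cells carry the Cre without any cassette. The Cre acts where the nestin promoter is active, in neural precursors and their descendants. The cassette was inserted in C57BL/6J zygotes, and the mice come from 1 founder line backcrossed to that strain. All cultures were grown as adherent progenitors with the growth factors FGF-2 and EGF, so none of the 4 groups models the mature, electrically active hippocampus. The labels number the libraries of a genotype without naming the animal or litter behind each, so the p-values measure the spread between these libraries, which may be partly technical.

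CaMKII is a large multimer of subunits encoded by separate genes. Calcium-loaded calmodulin opens each subunit, and phosphorylation of a threonine in the regulatory segment by a neighbouring subunit keeps the kinase active after calcium has fallen. The alpha and beta subunits are best known from the forebrain, where they act in synaptic plasticity, whereas the delta and gamma subunits are widely expressed. CaMK4 and CaMK1D belong to a separate cascade in which they are themselves switched on by an upstream kinase, CaMKK2.

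The stretch of coding sequence around the autophosphorylation site is shown for 3 of the 4 subunit genes because it holds the site that gives CaMKII its lasting activity, and because counts can be given to 1 gene only where relatives differ in sequence. Camk2a is not shown. The 51 bases on the GRCm38 coding strand lie in a coding exon of each gene, at chr11:5988973-5989023 on the minus strand for Camk2b, at chr3:126797717-126797767 on the plus strand for Camk2d and at chr14:20760415-20760465 on the minus strand for Camk2g. Capitals mark the codon of the autophosphorylated threonine.
Camk2b: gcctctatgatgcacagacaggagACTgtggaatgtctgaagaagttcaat
Camk2d: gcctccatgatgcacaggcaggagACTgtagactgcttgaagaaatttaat
Camk2g: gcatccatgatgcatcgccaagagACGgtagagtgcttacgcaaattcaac

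Over these 17 codons, Camk2b and Camk2d differed at 8 bases and 1 amino acid, Camk2b and Camk2g at 17 bases and 1 amino acid, and Camk2d and Camk2g at 13 bases and 2 amino acids. Most of the base differences therefore leave the protein unchanged. Over all annotated transcripts, between 0% and 1.29% of the 31-base words of each of the 10 genes occurred in another gene. None of the genes that shared the most words with each was among the 10. Estimated counts of these relatives thus rest almost wholly on sequence particular to each gene.

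The counts were transcript-based estimates summed per gene and are given as CPM (counts scaled to a common library size) after scaling each library for composition. The libraries held 18280008 to 28596919 counts, so 3 counts, the 95% upper limit for a library without a count, stand for 0.103 to 0.178 CPM. Such limits cover counting error only. Kmt2a itself, which checks the genotype labels, stood at 281 to 300 CPM in Kmt2a+/+, at 166 to 167 in all Kmt2a+/LSL libraries, at 283 to 310 in Nes-Cre+/- Kmt2a+/+ libraries and at 259 to 284 in Nes-Cre+/- Kmt2a+/LSL. Its fold change in Kmt2a+/LSL against Kmt2a+/+ was -0.82 ± 0.15 on the log2 scale (SE, n = 3 and 3). The adjusted p was 1 in edgeR and 2.64e-09 with the DESeq2 Wald test.

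Kmt2a+/+ replicate 1 stood apart from the other libraries, correlating with its fellow replicates at a median Pearson r of 0.903, against 0.939 to 0.984 for the rest. Its departure from the median library followed the GC content of transcripts. Across 11622 genes with a mean count of at least 50, the tenth with the lowest GC had a median log2 departure of 0.88 in this library and the tenth with the highest GC one of -1.87. Nes-Cre+/- Kmt2a+/LSL replicate 1 had the same direction, with medians of 0.39 and -0.46, and Kmt2a+/+ replicate 3 the opposite, with -0.50 and 0.36. In the other 9 libraries these medians lay between -0.18 and 0.11. The labelled cell type was checked on marker genes, and all 8 progenitor markers, among them Nes, Sox2 and Fabp7, were above 1 CPM in every library. Some varied widely, with Mki67 at 206 to 1429 CPM, Fabp7 at 2430 to 8960 and Hes5 at 2.14 to 160. The summed progenitor markers ran from 6930 to 14305 CPM in Kmt2a+/+ and did not exceed 8699 CPM in another genotype. Of 10 neuronal markers, 5 to 7 were above 1 CPM in all libraries of a genotype. Map2 was at 980 to 1874 CPM, Tubb3 at 3.03 to 28.2, Dcx at 6.28 to 19.7, Snap25 at 3.82 to 16.2 and Gad1 at 4.72 to 14.9. Rbfox3 and Syt1 reached at most 2.50 and 2.97 CPM, and Stmn2, Neurod6 and Slc17a7 did not exceed 0.300 CPM in any library. Astrocyte and oligodendrocyte lineage genes were present (Slc1a3 at 1705 to 3013 CPM, Olig1 at 705 to 4144), and the summed microglial markers reached at most 1.73 CPM. In bulk RNA of this kind, fewer cells of a type and less RNA per cell cannot be told apart.

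**Figure D1:**
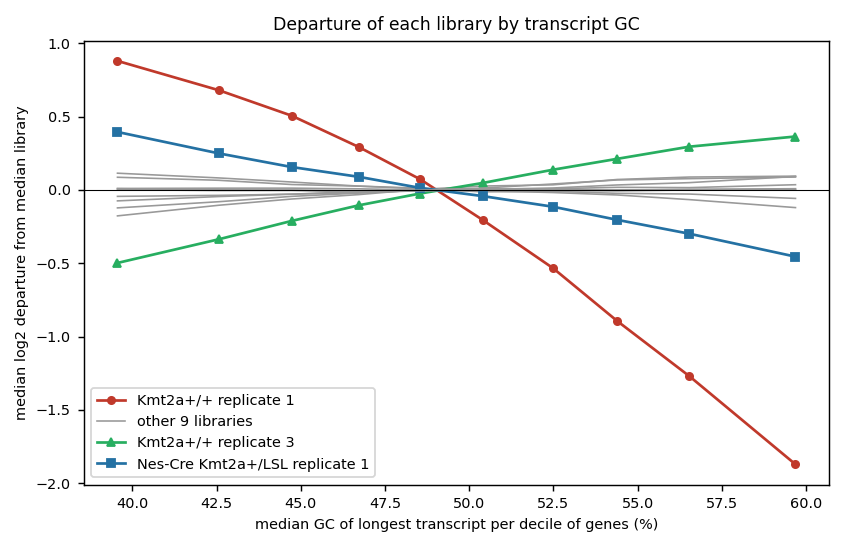
Median log2 departure of each library from the median library (vertical axis) in 10 equal groups of 11622 genes ordered by the GC content of their longest transcript (horizontal axis, percent). Kmt2a+/+ replicate 1 falls from 0.88 to -1.87 and Nes-Cre+/- Kmt2a+/LSL replicate 1 from 0.39 to -0.46, Kmt2a+/+ replicate 3 rises from -0.50 to 0.36, and the other 9 libraries stay near 0.

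Per kilobase of longest transcript, which allows levels of different genes to be set side by side, Camk2b and Camk2g were the most abundant of the 10 genes, with medians over 12 libraries of 24.1 and 21.3 CPM per kb. Camk2n1 followed at 16.7, Camk2n2 at 10.7, Camk2a at 10.2, Camk2d at 7.87 and Camkk2 at 5.52 CPM per kb. Camk1d at 1.46, Camk4 at 0.648 and Camkv at 0.0367 CPM per kb closed the order. The ranges over libraries of Camk2b (12.8 to 36.2 CPM per kb), Camk2g (12.3 to 29.5) and Camk2n1 (10.0 to 26.0) overlapped widely, as did those of Camk2n2 (2.63 to 12.4), Camk2a (3.43 to 19.9) and Camk2d (5.07 to 12.3). Of neighbours in the order, only Camkk2 and Camk1d (1.90 at most against 3.81 at least) and Camk4 and Camkv (0.410 at most against 0.496 at least) had ranges without overlap. The order depends on the transcript length used. The longest transcript has 3703 bases for Camk2g, 4861 for Camkk2 and 4970 for Camk2a. Their median coding transcripts have 822, 1084 and 1356.5 bases, whereas both lengths are the same for Camk2n1 and for Camk2n2.

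Camk2a encodes the alpha subunit (ENSMUSG00000024617). Its levels were 17.1, 41.2 and 77.6 CPM in the 3 Kmt2a+/+ libraries and 80.3, 74.0 and 98.9 CPM in the 3 Kmt2a+/LSL libraries. They were 52.3, 48.7 and 42.5 CPM in Nes-Cre+/- Kmt2a+/+ libraries and 48.8, 52.4 and 46.8 CPM in Nes-Cre+/- Kmt2a+/LSL. All 6 libraries with Cre thus lay below all 3 Kmt2a+/LSL libraries, and the 2 Cre genotypes overlapped each other. Kmt2a+/LSL and Kmt2a+/+ overlapped through Kmt2a+/+ replicate 3, whose 77.6 CPM lay above the lowest Kmt2a+/LSL library. The spread within Kmt2a+/+ was by far the widest of the 4 genotypes, with a coefficient of variation of 67.3% against 5.80% to 15.4% in the others.

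The mean Camk2a level was 84.4 ± 13 CPM (SD, n = 3) in Kmt2a+/LSL against 45.3 ± 30.5 CPM (n = 3) in Kmt2a+/+, a ratio of 1.86 and a fitted log2 fold change of 0.89 ± 0.44 (SE). The size of this difference depended on which Kmt2a+/+ libraries were counted. It was 0.50 without Kmt2a+/+ replicate 1, the lowest library, and 1.52 without replicate 3, the highest. These are also the Kmt2a+/+ libraries that departed most with GC content, in opposite directions. The longest Camk2a transcript has a GC content of 53.3%, above that of 69.4% of the genes used. In the tenth of genes that holds it, the median departure of Kmt2a+/+ replicate 1 was -0.53, and Camk2a itself departed by -1.54 there. Members of like GC content differed in this library. Camk2b (53.9% GC) departed by -0.71, Camk2n1 (53.7%) by -0.02 and Camkk2 (53.1%) by 0.28.

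When a GC trend was removed from each library, the Kmt2a+/+ values of Camk2a became 28.8, 39.4 and 68.7 CPM and the Kmt2a+/LSL values 81.8, 76.3 and 94.4 CPM, which no longer overlapped. The fitted log2 difference was then 0.88 ± 0.27. The adjustment was chosen after the values had been seen. It also moved Kmt2a+/+ replicate 1 from 73.2 to 130 CPM for Camk2n1 and from 32.7 to 54.2 CPM for Camkk2. Both genes have a GC content close to that of Camk2a, and this library then became their highest. The share of all genes without overlap was not computed on the adjusted scale. Against Kmt2a+/LSL, Nes-Cre+/- Kmt2a+/LSL cells had a Camk2a log2 fold change of -0.77 ± 0.44 without the adjustment, which ranged from -0.85 to -0.65 when single libraries were left out. Kmt2a+/LSL against the mean of the other 3 genotypes gave 0.83 ± 0.31. The LSL effect with Cre minus the LSL effect without it was -0.85 ± 0.56. Leaving out Kmt2a+/+ replicate 3 gave -1.49, and leaving out Kmt2a+/+ replicate 1 gave -0.46. All of these hold Kmt2a+/LSL libraries from which Camk2a had been picked. Nes-Cre+/- Kmt2a+/+ against Kmt2a+/+, which holds the same Kmt2a+/+ libraries, had a ratio of means of 1.06. The comparison with no library of either genotype set Nes-Cre+/- Kmt2a+/LSL (49.4 ± 2.86 CPM, n = 3) against Nes-Cre+/- Kmt2a+/+ (47.8 ± 4.94 CPM, n = 3), and there the log2 fold change was 0.05 ± 0.39 with a 95% interval from -0.82 to 0.91.

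Marker genes of other cell types are set beside Camk2a here, and their part in its values was not tested. The summed CPM of 10 neuronal markers, mostly Map2, ran from 1023 to 1923 in Kmt2a+/+, from 1289 to 1540 for Kmt2a+/LSL, from 1249 to 1382 for Nes-Cre+/- Kmt2a+/+ and from 1360 to 1726 for Nes-Cre+/- Kmt2a+/LSL. Of the 9 neuronal markers tested in Kmt2a+/LSL against Kmt2a+/+, 8 had a log2 fold change below 0 (median of the list -0.34), and of 10 tested against the other 3 genotypes 9 were below 0 (-0.30). Against Kmt2a+/LSL, Nes-Cre+/- Kmt2a+/LSL had 6 of 9 above 0 (0.27), and for the difference of the LSL effect with and without Cre 7 of 10 were above 0 (0.25). These medians have the sign opposite to that of Camk2a in these 4 comparisons. All 4 hold the Kmt2a+/LSL libraries for which Camk2a was picked, so nothing is read from how many signs match. In Nes-Cre+/- Kmt2a+/LSL against Nes-Cre+/- Kmt2a+/+, without these libraries, 5 of 10 were above 0 (0.0080). Of the 6 oligodendrocyte lineage markers, 5 were above 0 in Kmt2a+/LSL against Kmt2a+/+ (0.19), and 5 were above 0 in Kmt2a+/LSL against the other 3 genotypes (0.24), with 1 at an unadjusted p under 0.05 (1.2% of all genes). Of the same markers, 4 were below 0 in Nes-Cre+/- Kmt2a+/LSL against Kmt2a+/LSL (-0.41), with 1 at an unadjusted p under 0.05 (1.1% of all genes) and 2 without overlap (7.13% of all genes). For the difference of the LSL effect with and without Cre, all 6 were below 0 (-0.32). These medians have the sign of Camk2a in these 4 comparisons, which all hold the Kmt2a+/LSL libraries. In Nes-Cre+/- Kmt2a+/LSL against Nes-Cre+/- Kmt2a+/+, without these libraries, 5 of the 6 were below 0 (-0.18). The Camk2a ratio of means there was 1.03. The summed CPM of the oligodendrocyte lineage markers, mostly Olig1 and Olig2, overlapped between genotypes, at 1176 to 5334 in Kmt2a+/+, 3520 to 4337 for Kmt2a+/LSL, 3907 to 4769 for Nes-Cre+/- Kmt2a+/+ and 3335 to 5118 for Nes-Cre+/- Kmt2a+/LSL. Of 6 astrocyte markers, 4 were below 0 in Kmt2a+/LSL against Kmt2a+/+ (-0.11), with the sign opposite to that of Camk2a. With the sign of Camk2a, 5 were above 0 in Kmt2a+/LSL against the other 3 genotypes (0.087), 5 were below 0 in Nes-Cre+/- Kmt2a+/LSL against Kmt2a+/LSL (-0.27, with 2 without overlap), and 3 were below 0 for the difference of the LSL effect (-0.20). In Nes-Cre+/- Kmt2a+/LSL against Nes-Cre+/- Kmt2a+/+, 4 of the 6 astrocyte markers were below 0 (-0.16). No marker of these lists passed an adjusted p under 0.05 in edgeR or DESeq2.

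**Figure D2:**
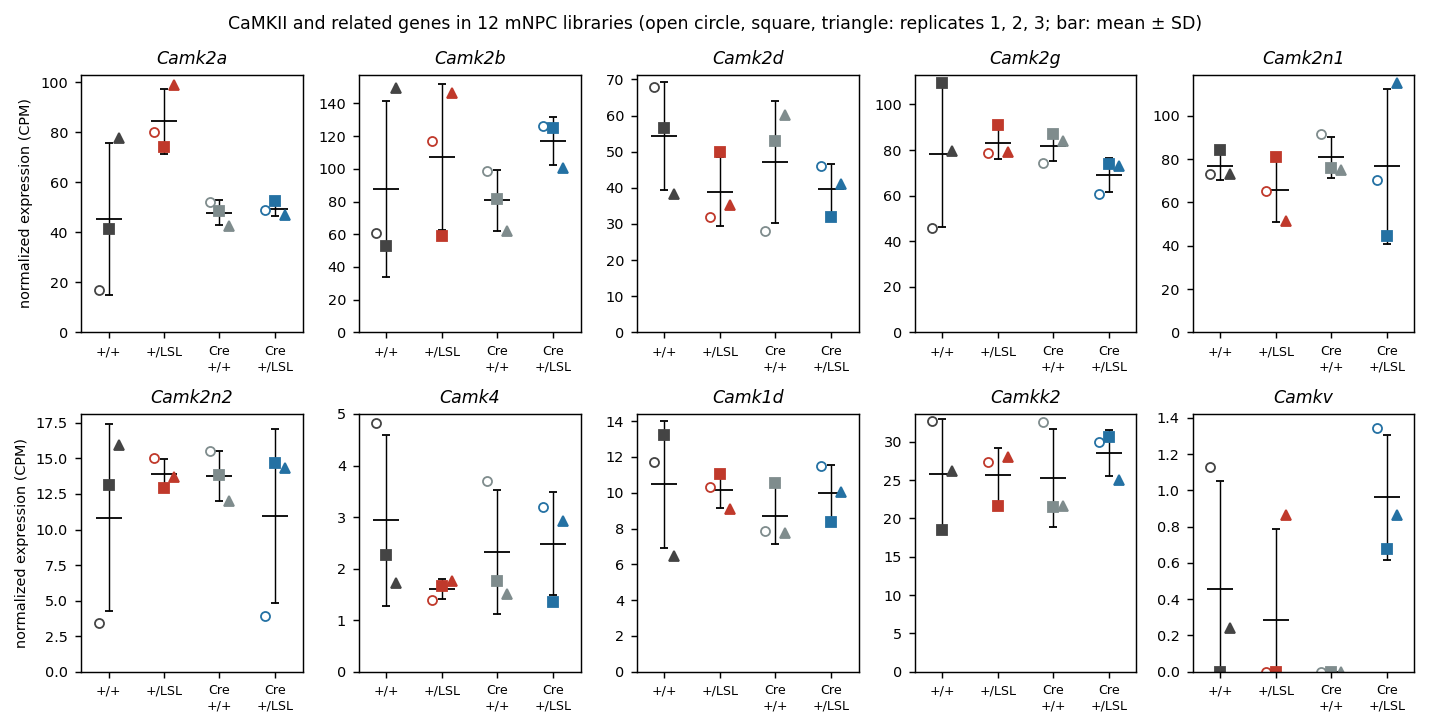
Normalized expression in CPM (vertical axes, from 0) of the 10 genes in each of the 12 libraries, grouped by genotype (horizontal axes, +/+ and +/LSL for Kmt2a, Cre for Nes-Cre+/-), with the mean and SD of 3 libraries as a bar. Camk2a sits at 74.0 to 98.9 CPM in Kmt2a+/LSL and at 42.5 to 52.4 CPM in all 6 libraries with Cre, and Camk2n2 is low in Kmt2a+/+ replicate 1 and Nes-Cre+/- Kmt2a+/LSL replicate 1 (open circles).

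Camk2b encodes the beta subunit, which also binds actin (ENSMUSG00000057897, chr11:5969644-6066362). It stood at 60.6, 52.8 and 149 CPM in Kmt2a+/+ and at 117, 58.6 and 146 CPM in Kmt2a+/LSL. With Cre it stood at 98.9, 81.6 and 61.8 CPM in Nes-Cre+/- Kmt2a+/+ libraries and at 126, 125 and 100 CPM in Nes-Cre+/- Kmt2a+/LSL. The Kmt2a+/+ and Kmt2a+/LSL libraries covered almost the same wide range, and their log2 difference of 0.27 ± 0.44 turned to -0.01 without Kmt2a+/LSL replicate 3. Every Nes-Cre+/- Kmt2a+/LSL library lay above every Nes-Cre+/- Kmt2a+/+ library, by a ratio of means of 1.45. That log2 fold change of 0.54 ± 0.41 (95% interval from -0.36 to 1.43) had an unadjusted p of 0.216 and an adjusted p of 1 in edgeR fitted on 12 libraries. With only the 6 libraries of these genotypes fitted the value was 0.53 ± 0.18, with an unadjusted p of 0.0192 and an adjusted p of 1.

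Camk2d, the delta subunit gene (ENSMUSG00000053819, chr3:126596302-126846326), ran the other way in the Kmt2a+/+ libraries. It stood at 68, 56.7 and 38.3 CPM in Kmt2a+/+ and at 31.8, 49.9 and 35.2 CPM in Kmt2a+/LSL. The Cre genotypes had 28.0, 53.0 and 60.3 CPM without the cassette and 46.0, 32.1 and 40.9 CPM with it. Groups overlapped in every pair. In Kmt2a+/LSL against Kmt2a+/+ the log2 fold change was -0.49 ± 0.28, with an unadjusted p of 0.114 and an adjusted p of 1 in edgeR, and it was -0.28 without Kmt2a+/+ replicate 1. Camk2d has the lowest GC content of the 10 genes, at 43.9%, and its highest library was Kmt2a+/+ replicate 1, where genes of low GC stood high. With the GC trend removed, its means were 51.6 ± 8.76 CPM (SD) in Kmt2a+/+ and 38.3 ± 8.82 CPM in Kmt2a+/LSL. Before that they were 54.3 and 39.0 CPM.

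Camk2g, the gamma subunit gene (ENSMUSG00000021820, chr14:20734875-20794088), was the steadiest CaMKII gene outside Kmt2a+/+. Its levels were 45.6, 109 and 79.4 CPM in Kmt2a+/+ and 78.6, 91.1 and 79.3 CPM in Kmt2a+/LSL. They were 74.2, 86.8 and 83.9 CPM in Nes-Cre+/- Kmt2a+/+ libraries and 60.5, 73.8 and 73.0 CPM in Nes-Cre+/- Kmt2a+/LSL. All 3 Nes-Cre+/- Kmt2a+/LSL libraries lay below all Kmt2a+/LSL libraries and below all Nes-Cre+/- Kmt2a+/+ libraries, although the nearest values, 73.8 and 74.2 CPM, were almost equal. The log2 fold changes were -0.26 ± 0.29 and -0.24 ± 0.26, with unadjusted p of 0.381 and 0.369 in edgeR.

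As shares of the 4 subunit transcripts per kilobase, Camk2b and Camk2g together outweighed Camk2a and Camk2d together in every library. The Camk2a share was 8.03%, 13.6% and 19.5% in Kmt2a+/+ and 22.6%, 23.7% and 23.9% in Kmt2a+/LSL. It was 17.7%, 15.6% and 15.0% in Nes-Cre+/- Kmt2a+/+ libraries and 15.1%, 15.8% and 15.5% in Nes-Cre+/- Kmt2a+/LSL. On this scale the Kmt2a+/LSL libraries lay above all 9 others, including Kmt2a+/+ replicate 3, and they differed among themselves by less than the libraries of Kmt2a+/+. The means were 23.4% ± 0.720 (SD, n = 3) for Kmt2a+/LSL, 13.7% ± 5.71 for Kmt2a+/+, 16.1% ± 1.39 for Nes-Cre+/- Kmt2a+/+ libraries and 15.5% ± 0.364 in Nes-Cre+/- Kmt2a+/LSL. These shares use the Camk2a values for which the gene was picked and are not tested.

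**Figure D3:**
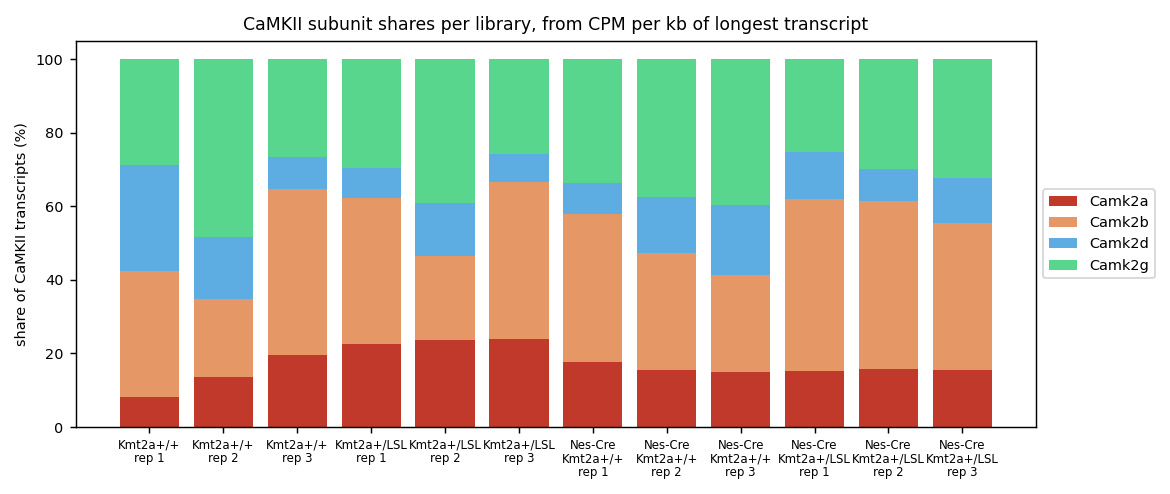
Share in percent (vertical axis, from 0 to 100) of each CaMKII subunit gene in the summed CPM per kb of longest transcript, 1 bar per library (horizontal axis). The Camk2a segment spans 22.6% to 23.9% in the 3 Kmt2a+/LSL libraries and 8.03% to 19.5% in the other 9.

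Camk2n1 and Camk2n2 encode small proteins that bind active CaMKII and block its catalytic site. Their coding sequences hold 78 and 79 codons. The stretch of 75 bases below covers the kinase-inhibiting region and is shown to set beside each other the inhibitors' nearly identical protein and diverged bases. It is split by an intron in both genes, with blocks at chr4:138455312-138455351 and chr4:138456718-138456752 for Camk2n1 and at chr16:20620209-20620243 and chr16:20621026-20621065 for Camk2n2 (GRCm38, plus and minus strand). Capitals mark the bases that differ.
Camk2n1: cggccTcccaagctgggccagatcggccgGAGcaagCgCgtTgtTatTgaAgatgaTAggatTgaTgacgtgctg
Camk2n2: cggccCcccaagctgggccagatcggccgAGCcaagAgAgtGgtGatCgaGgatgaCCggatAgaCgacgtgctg

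The genes differ there at 14 of 75 bases, which changes 1 of 25 amino acids. Camk2n1 (ENSMUSG00000046447, chr4:138454314-138460123) stood at 73.2, 84.1 and 72.9 CPM in Kmt2a+/+ and at 65.2, 81.1 and 51.6 CPM in Kmt2a+/LSL. With Cre it stood at 91.8, 75.7 and 75.2 CPM in Nes-Cre+/- Kmt2a+/+ libraries and at 70.3, 44.5 and 115 CPM in Nes-Cre+/- Kmt2a+/LSL. The last genotype held both the lowest and the highest library of the 12, and no pair of genotypes was separate in the comparisons made. Its log2 fold changes were -0.23 ± 0.33 in Kmt2a+/LSL against Kmt2a+/+ and -0.08 ± 0.29 in Nes-Cre+/- Kmt2a+/LSL against Nes-Cre+/- Kmt2a+/+ (95% intervals from -0.96 to 0.50 and from -0.72 to 0.57). The former was -0.41 without Kmt2a+/LSL replicate 2 and -0.077 without Kmt2a+/LSL replicate 3.

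Camk2n2 (ENSMUSG00000051146, chr16:20619215-20621287) was nearly constant in 10 libraries and low in the other 2. Its levels were 3.39, 13.2 and 16.0 CPM in Kmt2a+/+ and 15.0, 12.9 and 13.7 CPM in Kmt2a+/LSL. They were 15.5, 13.9 and 12.0 CPM in Nes-Cre+/- Kmt2a+/+ libraries and 3.88, 14.6 and 14.3 CPM in Nes-Cre+/- Kmt2a+/LSL. The 2 low values, 3.39 and 3.88 CPM, fell in the 2 libraries in which GC-rich genes stood low. Camk2n2 has the highest GC content of the 10 genes, 63.9%, above that of 99.5% of the genes used, and it departed by -1.88 and -1.70 in those libraries on the log2 scale. With the GC trend removed its values there were 18.6 and 6.42 CPM, so the first went from the lowest to the highest of the 12 and the second became the lowest. The log2 difference between Kmt2a+/LSL and Kmt2a+/+ of 0.34 ± 0.59 became -0.07 without Kmt2a+/+ replicate 1. The Nes-Cre+/- Kmt2a+/LSL difference from Nes-Cre+/- Kmt2a+/+ of -0.33 ± 0.53 became 0.07 without Nes-Cre+/- Kmt2a+/LSL replicate 1.

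Set against the summed CaMKII subunits per kilobase, the 2 inhibitor genes together gave a ratio of 0.428 ± 0.0622 (SD, n = 3) in Kmt2a+/+ and 0.362 ± 0.0917 in Kmt2a+/LSL. It was 0.484 ± 0.0567 in Nes-Cre+/- Kmt2a+/+ libraries and 0.406 ± 0.176 in Nes-Cre+/- Kmt2a+/LSL. The single libraries ran from 0.267 in Kmt2a+/LSL replicate 3 to 0.609 in Nes-Cre+/- Kmt2a+/LSL replicate 3, and the genotypes overlapped. The ratio is a description that depends on the transcript lengths used, and with the median coding transcript in place of the longest the 4 means lay between 0.114 and 0.154.

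Of the separate cascade, Camkk2, the upstream kinase gene (ENSMUSG00000029471, chr5:122731170-122779409), was the most abundant and, in CPM without GC adjustment, the most even. Its levels were 32.7, 18.5 and 26.3 CPM in Kmt2a+/+ and 27.4, 21.6 and 28.0 CPM in Kmt2a+/LSL. They were 32.6, 21.6 and 21.6 CPM in Nes-Cre+/- Kmt2a+/+ libraries and 29.9, 30.6 and 25.1 CPM in Nes-Cre+/- Kmt2a+/LSL. All 4 genotypes overlapped, and the 12 libraries ran from 18.5 to 32.7 CPM. With the GC trend removed they ran from 17.8 to 54.2 CPM, the latter in Kmt2a+/+ replicate 1, and those of Camk1d from 6.90 to 13.7 CPM. The log2 difference between Kmt2a+/LSL and Kmt2a+/+ was -0.03 ± 0.25, with a 95% interval from -0.59 to 0.54.

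Camk1d, a cytoplasmic target of CaMKK2 (ENSMUSG00000039145, chr2:5293457-5714515), stood at 11.7, 13.2 and 6.45 CPM in Kmt2a+/+ and at 10.3, 11.0 and 9.09 CPM in Kmt2a+/LSL. With Cre it stood at 7.85, 10.6 and 7.75 CPM in Nes-Cre+/- Kmt2a+/+ libraries and at 11.5, 8.39 and 10.0 CPM in Nes-Cre+/- Kmt2a+/LSL. The groups overlapped, and the log2 fold changes were -0.06 ± 0.30 for Kmt2a+/LSL against Kmt2a+/+ and 0.19 ± 0.28 in Nes-Cre+/- Kmt2a+/LSL against Nes-Cre+/- Kmt2a+/+.

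Camk4 (ENSMUSG00000038128) encodes a nuclear kinase that phosphorylates the transcription factor CREB. It was low in these progenitors, at 4.82, 2.27 and 1.72 CPM in Kmt2a+/+ and 1.39, 1.67 and 1.77 CPM in Kmt2a+/LSL. The Cre genotypes had 3.70, 1.75 and 1.51 CPM without the cassette and 3.19, 1.35 and 2.92 CPM with it. Kmt2a+/LSL overlapped Kmt2a+/+ only through Kmt2a+/+ replicate 3. The log2 fold change of -0.88 ± 0.49 had an unadjusted p of 0.104 and an adjusted p of 1 in edgeR, and it was -0.31 without Kmt2a+/+ replicate 1, where Camk4 departed by 1.23 from the median library.

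Camkv encodes a pseudokinase, a calmodulin-binding relative of CaMKII without kinase activity (ENSMUSG00000032936, chr9:107935674-107949691). It was close to the limit of detection, with 19, 0 and 7 counts in Kmt2a+/+ and 0, 0 and 20 counts in Kmt2a+/LSL. It had 0 counts in all 3 Nes-Cre+/- Kmt2a+/+ libraries and 27, 18 and 19 counts in the 3 Nes-Cre+/- Kmt2a+/LSL libraries. Detection therefore did not follow a genotype except within the Cre pair, where the groups were separate. There Nes-Cre+/- Kmt2a+/LSL averaged 0.962 ± 0.345 CPM (SD, n = 3), which is 7.81 times a floor of 3 counts per library in Nes-Cre+/- Kmt2a+/+. The unadjusted p was 0.0154 and the adjusted p was 1 in edgeR (0.00168 and 1 with the DESeq2 Wald test). Over 16 settings of the fit the unadjusted p lay between 0.000194 and 0.0356 and the adjusted p did not fall below 0.620. The same 3 libraries without a count entered the comparison of Nes-Cre+/- Kmt2a+/+ with Kmt2a+/+, with an unadjusted p of 0.0374 and an adjusted p of 1. They also entered the difference of the LSL effect with and without Cre, with 0.026 and 1 in edgeR.

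Across the 10 genes, edgeR's quasi-likelihood test called none at an adjusted p under 0.05 in any of the 6 comparisons, and the DESeq2 Wald test called none either. Few genes of the whole table were called either. In Kmt2a+/LSL against Kmt2a+/+, edgeR did not call even Kmt2a, whose groups were far apart and which DESeq2 called. The lack of calls among the 10 therefore does not show that they were unchanged. In Kmt2a+/LSL against Kmt2a+/+, edgeR called 0% of 16655 genes and DESeq2 0.0421%, and an unadjusted p under 0.05 was reached by 1.15% of all genes and by none of the 10. In Nes-Cre+/- Kmt2a+/LSL against Kmt2a+/LSL the shares were 0%, 0.0361% and 1.1%, again with none of the 10. For Nes-Cre+/- Kmt2a+/+ against Kmt2a+/+ they were 0%, 0.0176% and 1.4%, with Camkv past the unadjusted threshold. With Nes-Cre+/- Kmt2a+/LSL against Nes-Cre+/- Kmt2a+/+ they were 0%, 0.0176% and 1.11%, with Camkv. For Kmt2a+/LSL against the other 3 genotypes they were 0.00586%, 0.0235% and 1.2%, with Camk2a, for which nothing is read from the count. For the difference of the LSL effect with and without Cre they were 0%, 0.0587% and 1.73%, with Camkv.

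Groups without overlap were found for none of the 10 genes in Kmt2a+/LSL against Kmt2a+/+, where 4.06% of all genes had them, and for none in Nes-Cre+/- Kmt2a+/+ against Kmt2a+/+ (4.35%). In Nes-Cre+/- Kmt2a+/LSL against Kmt2a+/LSL there were 2 of 10, Camk2a and Camk2g, both lower with Cre, against 7.13% of all genes. The count in Nes-Cre+/- Kmt2a+/LSL against Nes-Cre+/- Kmt2a+/+ was 3 of 10, Camk2b and Camkv higher and Camk2g lower, against 6.68%. The median log2 fold change over the 10 genes was -0.04 in Kmt2a+/LSL against Kmt2a+/+, 0.08 in Nes-Cre+/- Kmt2a+/LSL against Kmt2a+/LSL and 0.07 for Nes-Cre+/- Kmt2a+/LSL against Nes-Cre+/- Kmt2a+/+, beside -0.01, 0.00 and 0.00 over all genes tested. The 8 genes other than Camk2a and Camkv lay, in Nes-Cre+/- Kmt2a+/LSL against Kmt2a+/LSL, between -0.34 ± 0.59 for Camk2n2 and 0.63 ± 0.49 for Camk4. Camk2a was picked for its high level in Kmt2a+/LSL, so nothing is read from its place in the count against Kmt2a+/LSL, which leaves Camk2g of the other 9 genes. These counts describe the set and are not tested.

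**Figure D4:**
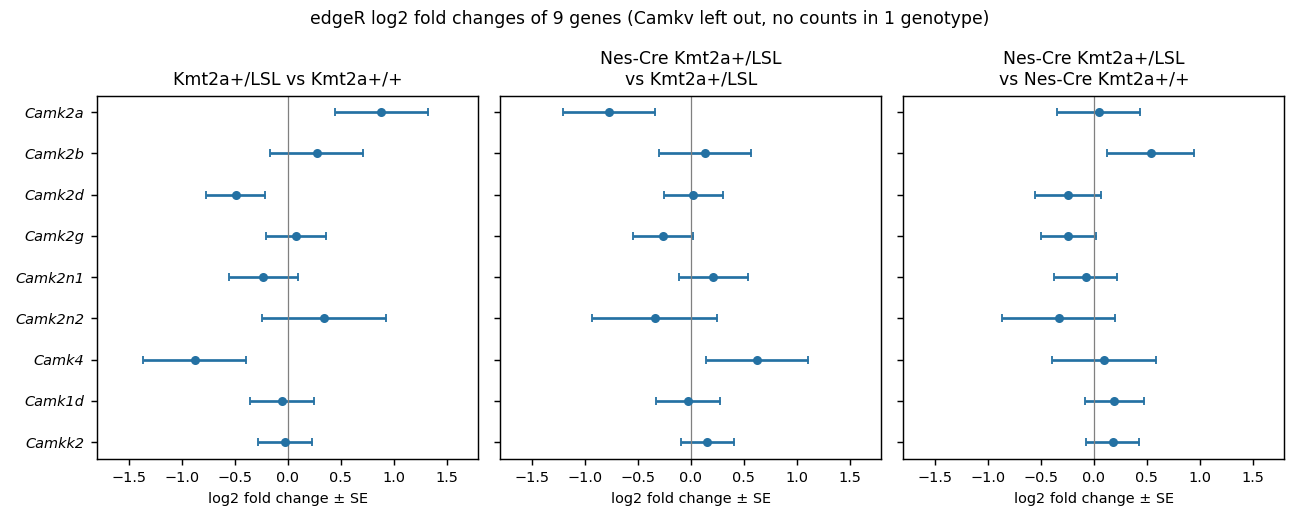
Log2 fold change and SE from edgeR (horizontal axis) of 9 of the 10 genes (vertical axis) in 3 comparisons. Camk2a is at 0.89 in Kmt2a+/LSL against Kmt2a+/+, at -0.77 in Nes-Cre+/- Kmt2a+/LSL against Kmt2a+/LSL and at 0.05 in Nes-Cre+/- Kmt2a+/LSL against Nes-Cre+/- Kmt2a+/+, and no gene passed the adjusted threshold in any of them.

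Around these kinases, 66 genes of calcium signalling in 6 lists were examined. The lists were other calcium/calmodulin kinases (13 genes), calmodulins and calmodulin-binding buffers (6), calcineurin and its regulators (8), CREB factors and coactivators (8), synaptic partners and substrates of CaMKII (12), and channels and pumps of calcium entry and release (19). In edgeR, 0 of 66 passed an adjusted p under 0.05 in each of the 6 comparisons, and DESeq2 called 0 as well. At an unadjusted p under 0.05 there were 0 in Kmt2a+/LSL against Kmt2a+/+, 0 in Nes-Cre+/- Kmt2a+/LSL against Nes-Cre+/- Kmt2a+/+ and 0 in Kmt2a+/LSL against the other 3 genotypes, beside 1.15%, 1.11% and 1.2% of all genes. There were 3 in Nes-Cre+/- Kmt2a+/+ against Kmt2a+/+ (Cacna1e, Itpr2 and Lrrc7, all lower, beside 1.4% of all genes). There was 1 in Nes-Cre+/- Kmt2a+/LSL against Kmt2a+/LSL (Grin2a, lower, beside 1.1%) and 1 for the difference of the LSL effect with and without Cre (Itpr2, beside 1.73%). Cacna1e, a calcium channel subunit gene, Lrrc7, a postsynaptic scaffold gene, Grin2a, an NMDA receptor subunit gene, Syn1, a synaptic vesicle protein gene, and Phkg2, a phosphorylase kinase subunit gene, were picked out after their values were seen. The median log2 fold change over the 66 genes was 0.02 in Kmt2a+/LSL against Kmt2a+/+ and 0.07 in Nes-Cre+/- Kmt2a+/LSL against Nes-Cre+/- Kmt2a+/+. Groups did not overlap for 2 of the 66 (3.03%, beside 4.06% of all genes) in the former, Itpr2 and Syn1, both lower. They did not overlap for 5 (7.58%, beside 6.68% of all genes) in the latter, among them Crebbp, Itpr2 and Ppp3ca, all higher, and Phkg2, lower. There were 6 (9.09%, beside 7.13%) in Nes-Cre+/- Kmt2a+/LSL against Kmt2a+/LSL, Crebbp, Grin2b, Itpr2 and Ppp3ca higher and Arc and Phkg1 lower. Between the genotypes with 2 intact Kmt2a alleles, Nes-Cre+/- Kmt2a+/+ and Kmt2a+/+, there were 3, again Itpr2 and Syn1, with Atp2a2, all lower with Cre, beside 4.35% of all genes.

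Itpr2, an inositol trisphosphate receptor that releases calcium from the endoplasmic reticulum, had the smallest unadjusted p in both comparisons among list genes with a mean count of at least 50. It stood at 167 ± 10.0 CPM (SD, n = 3) in Kmt2a+/+, 132 ± 10.8 for Kmt2a+/LSL, 132 ± 7.33 for Nes-Cre+/- Kmt2a+/+ libraries and 159 ± 23.2 in Nes-Cre+/- Kmt2a+/LSL. Its log2 fold change was -0.35 ± 0.18 in Kmt2a+/LSL against Kmt2a+/+ (unadjusted p = 0.0748 and adjusted p = 1 in edgeR). It was 0.26 ± 0.15 in Nes-Cre+/- Kmt2a+/LSL against Nes-Cre+/- Kmt2a+/+ (0.105 and 1), and 0.14 without Nes-Cre+/- Kmt2a+/LSL replicate 3. Itpr2 in Nes-Cre+/- Kmt2a+/+ against Kmt2a+/+, both with 2 intact Kmt2a alleles, was at 126 to 140 CPM against 160 to 178 CPM, with an unadjusted p of 0.0462 and an adjusted p of 1 in edgeR. For the difference of the LSL effect with and without Cre its unadjusted p was 0.0155, and it was not called after adjustment.

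None of the genes named from the other lists passed the test. In Kmt2a+/LSL against Kmt2a+/+, Cask, a scaffold with a CaMK-like domain, had a log2 fold change of -0.36 ± 0.31, Ppp3ca, a catalytic subunit of calcineurin, one of -0.24 ± 0.27, Crebbp, a coactivator of CREB, one of -0.26 ± 0.26, and Gria2, an AMPA receptor subunit, one of -0.34 ± 0.40. Without Kmt2a+/+ replicate 1 these turned to 0.03, 0.13, 0.11 and 0.31. Nrgn, the calmodulin-binding protein neurogranin, was at 0.54 ± 0.65, and at 0.13 without Kmt2a+/+ replicate 1 and 1.64 without Kmt2a+/+ replicate 3. In Nes-Cre+/- Kmt2a+/LSL against Nes-Cre+/- Kmt2a+/+, Dapk1, a death-associated kinase, had -0.43 ± 0.32, Ppp3ca 0.22 ± 0.23, Crebbp 0.30 ± 0.23, and Grin2b, the NMDA receptor subunit that docks CaMKII, 0.43 ± 0.29. The unadjusted p of these genes ran from 0.169 to 0.424 and the adjusted p was 1 in edgeR.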

How the data were processed

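RNA was sequenced from 12 mNPC libraries, 3 for each of 4 genotypes, which were grouped by their genotype labels. Per the study's methods and processing notes, reads were pseudoaligned to the mm10 (GRCm38) transcriptome with kallisto 0.48.0 and summed per gene. The authors deposited whole-number estimated counts without normalization for 18911 genes, of which 18718 matched a symbol in the supplied gene table. Total counts per library were 18280008 to 28596919, which set the precision of low genes. The 10 genes and all gene lists were chosen with earlier results of these data known.

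Counts were tested with edgeR 4.0.16 (quasi-likelihood F-test, two-sided, trimmed mean of M-values scaling) on genes that summed to over 10 counts and were detected in 2 or more libraries, with Benjamini-Hochberg adjustment over all genes tested. A fit of 9 libraries without Nes-Cre+/- Kmt2a+/+ (16655 genes), as in the study, served the comparisons among the other 3 genotypes, and a fit of 12 libraries (17076 genes) the rest. DESeq2 1.42.0 and limma 3.58.1 served as alternatives, and the code was tested on simulated data. The SE of a log2 fold change is its size divided by the root of the F statistic. CPM used the 12-library scaling. Levels per kb, GC content and coding sequences came from the GENCODE annotation of GRCm38, with the longest transcript of each gene. GC content was known for 99.5% of the 11677 genes with a mean count of at least 50. The GC trend was a spline of each library's log2 departure from the median library, added to the edgeR offset. Beside the 10 genes and Kmt2a, named genes were those with the smallest unadjusted p of each list in Kmt2a+/LSL against Kmt2a+/+ and in Nes-Cre+/- Kmt2a+/LSL against Nes-Cre+/- Kmt2a+/+, among list genes with a mean count of at least 50. The result for 1 of these genes is not reported here. Alternatives changed the test, scaling, filter, fitted libraries, replicate block and transcript length, and left out single libraries.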

Additional observations from a re-analysis of the deposited data

How the results depend on the processing

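The number of the 10 genes called at an adjusted p under 0.05 was 0 in all 6 comparisons under every alternative, the replicate block included, and 0 to 0 when single libraries were left out. Same-numbered libraries of different genotypes deviated from their genotype means with a mean correlation of 0.084 (18 pairs, from -0.072 to 0.416), against -0.041 for the 36 other pairs, so the numbers were not taken as pairs. With the replicate block, Camk2a in Kmt2a+/LSL against Kmt2a+/+ was 1.03, and 156 genes had an unadjusted p under 0.05 against 191 without it. Chosen after seeing the data were edgeR with adjusted deviances, the GC trend in the offset, and Kmt2a+/+ replicate 1 and Nes-Cre+/- Kmt2a+/LSL replicate 1 both left out. Over all genes in Kmt2a+/LSL against Kmt2a+/+, unadjusted p under 0.05 were reached by 1785 genes without those libraries, by 1023 with limma-voom and by 348 with the GC trend.

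The direction changed for the following values. In Kmt2a+/LSL against Kmt2a+/+, limma-voom gave -0.21 for Camk2g, 0.25 for Camkk2, 0.078 for Ppp3ca, 0.055 for Crebbp and 0.22 for Gria2. With both libraries left out the values were -0.18 for Camk2g, -0.069 for Camk2n2, 0.053 for Camk1d, 0.20 for Camkk2, 0.031 for Cask, 0.13 for Ppp3ca, 0.11 for Crebbp and 0.31 for Gria2. In Nes-Cre+/- Kmt2a+/LSL against Kmt2a+/LSL, Camk2d was -0.055 with limma-voom and -0.12 with both libraries left out, which gave 0.042 for Camk2n2. Against Nes-Cre+/- Kmt2a+/+, leaving both out gave 0.055 for Camk2n2 and -0.15 for Camk4. The cause was not tested.

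With single libraries left out, the log2 fold changes in Kmt2a+/LSL against Kmt2a+/+ ran from -0.0071 to 0.90 for Camk2b, -0.18 to 0.39 for Camk2g, -0.069 to 0.73 for Camk2n2, -0.31 to 0.14 for Camk1d, -0.22 to 0.19 for Camkk2, -0.53 to 0.031 for Cask, -0.43 to 0.13 for Ppp3ca, -0.43 to 0.11 for Crebbp and -0.61 to 0.31 for Gria2. In Nes-Cre+/- Kmt2a+/LSL against Kmt2a+/LSL they ran from -0.16 to 0.42 for Camk2b, -0.10 to 0.25 for Camk2d, -0.20 to 0.49 for Camk2n1, -0.62 to 0.061 for Camk2n2 and -0.14 to 0.082 for Camk1d. Against Nes-Cre+/- Kmt2a+/+ they ran from -0.033 to 0.11 for Camk2a, -0.50 to 0.20 for Camk2n1, -0.60 to 0.070 for Camk2n2 and -0.14 to 0.60 for Camk4. Without a change of direction, values still moved by over 1.5 times. They ran from -0.72 to -0.28 for Camk2d, -0.41 to -0.077 for Camk2n1, -1.16 to -0.31 for Camk4 and 0.13 to 1.64 for Nrgn in Kmt2a+/LSL against Kmt2a+/+. With Cre in both groups they ran from -0.51 to -0.030 for Camk2d, 0.079 to 0.35 for Camk1d, 0.075 to 0.41 for Camkk2, -0.31 to -0.15 for Camk2g, 0.21 to 0.66 for Grin2b, 0.14 to 0.32 for Itpr2, 0.11 to 0.27 for Ppp3ca and -0.66 to -0.25 for Dapk1. Camk4 ran from 0.41 to 0.92 and Camkk2 from 0.050 to 0.24 in Nes-Cre+/- Kmt2a+/LSL against Kmt2a+/LSL.

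The Camk2a share with the median coding transcript length, and then with no length scaling, was 16.5% and 15.8% for Kmt2a+/+, 27.1% and 26.9% for Kmt2a+/LSL, 18.7% and 18.6% for Nes-Cre+/- Kmt2a+/+ libraries and 19.0% and 17.9% for Nes-Cre+/- Kmt2a+/LSL. The inhibitor to kinase ratio became 0.142 and 0.344 in Kmt2a+/+, 0.114 and 0.262 in Kmt2a+/LSL, and 0.154 and 0.369 for Nes-Cre+/- Kmt2a+/+ libraries. It became 0.136 with the median length for Nes-Cre+/- Kmt2a+/LSL. Depth limits Camkv, with at most 27 counts in a library.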
